A study of Drosophila melanogaster with 6 samples.

Results

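The genes of the glycolysis enzymes were followed in RNA from mesodermal cells of Drosophila melanogaster embryos. Members were the probe sets that the array annotation gives to exactly 1 gene with the symbol Hex-A, Pgi, Pfk, Tpi, Gapdh1, Gapdh2, Pgk, Pglym78, Eno or Pyk. Of these 10 genes, 8 had such a probe set, 1 each, among 11982 genes and 18769 tested probe sets. Gapdh2 and Pyk (PyK in current annotation) had none and were not analysed here. The test compared 3 arrays of twi-GAL4 UAS-2EGFP/UAS-jumu embryos, in which the mesodermal twist driver switches on both green fluorescent protein and the forkhead factor Jumu, with 3 control arrays of twi-GAL4 UAS-2EGFP embryos, which carry the same driver and reporter without UAS-jumu. Both genotypes were kept at 29 °C until late stage 11 or early stage 12, and GFP-positive cells were sorted from them. The driver defines the sorted cells in both, so jumu was driven in Twist-expressing cells generally and not in 1 mesodermal cell type. Replicates carry numbers, and nothing in the labels ties each number to a collection of embryos of its own. The p-values therefore rest on a spread between arrays that may be only technical.

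Glycolysis turns glucose into pyruvate in the cytosol. Its upper steps spend ATP to make and split a hexose bisphosphate into triose phosphates, and its lower steps oxidize the triose phosphates and return ATP. In Drosophila the pathway's genes are known to be switched on together during embryogenesis under the nuclear receptor ERR, and embryonic muscles depend on several of these enzymes for growth.

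The overexpressed gene was higher in every UAS-jumu array. The jumu log2 signal was 13.56 ± 0.18 in UAS-jumu arrays and 11.45 ± 0.11 in controls (SD, n = 3 each). Values are log2 signals after quantile normalization between arrays, which was applied because the medians of the deposited log2 values ran from 5.09 to 5.43 in UAS-jumu arrays and from 5.38 to 5.64 in controls. Among probe sets with a mean log2 signal of at least 9, Pearson's r ran from 0.993 to 0.995 for arrays of the same genotype, and from 0.958 to 0.961 for arrays of different genotypes. No intensity scale with a known zero is attached to the table, so the levels of different genes are not set against each other. Precision is limited by the 3 arrays in each group.

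The enzyme genes divided into 5 that were lower in the UAS-jumu arrays with no overlap between the groups (Hex-A, Pgi, Tpi, Pglym78 and Eno) and 3 whose groups overlapped (Pfk, Gapdh1 and Pgk). Tpi, encoding triosephosphate isomerase, fell to 0.48 of its control level and was the 1 gene of the 8 past an adjusted p of 0.05 in limma. Of all probe sets 2.77% passed this threshold in either direction and 1.41% were called lower. Lower values without overlap occurred in 14.7% of all probe sets, and in 27.3% of those with a mean log2 signal of at least 7, a level that all 8 genes reach and that was set after seeing the data. In limma 3.01% of the probe sets at that level were called lower, against 1 of the 8 genes. All 8 log2 changes were negative, from -1.06 to -0.04, although only 5 stayed negative with median centring, 2 (Hex-A and Tpi) with scaling to hybridization controls and 1 (Tpi) with scaling to poly-A controls, the spike-ins added to every sample. The 8 changes had a median of -0.40, against a median of -0.01 over all probe sets tested, of which 50.6% were negative. Scaling to hybridization or poly-A controls turned the enzyme genes' median to 0.19 and 0.52. The same scalings moved the median of all probe sets to 0.46 and 0.78. The median of the enzyme genes minus that of all probe sets was -0.27 under both, as under median centring and with no scaling step. These settings differ only by shifts of whole arrays, so they give 1 value by construction. After quantile normalization it was -0.40.

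**Figure D1:**
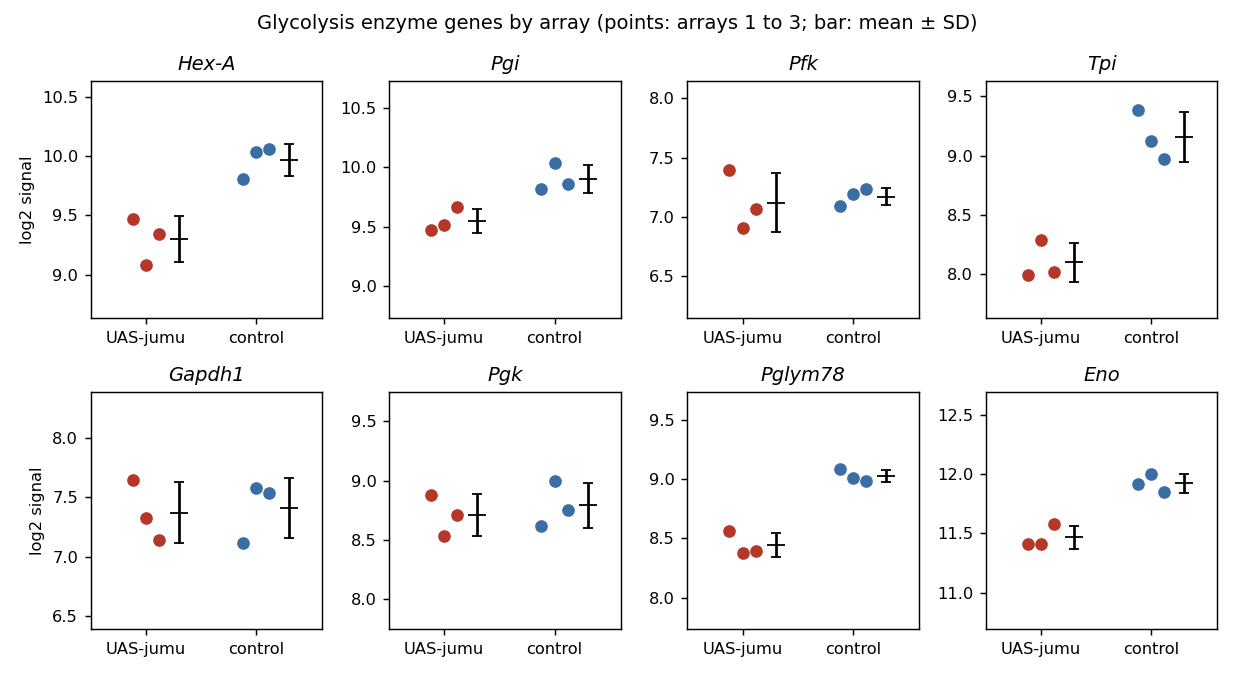
Log2 signal (y axis, quantile-normalized, each panel spanning 2 log2 units around the gene's own level) of the 8 enzyme genes in pathway order, with the 3 UAS-jumu arrays left and the 3 control arrays right in each panel; points are arrays 1 to 3 and bars the mean ± SD. The UAS-jumu points lie below all control points for Hex-A, Pgi, Tpi, Pglym78 and Eno, and the groups overlap for Pfk, Gapdh1 and Pgk.

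In the upper part of the pathway, Hex-A encodes hexokinase, which traps glucose as glucose 6-phosphate. Its log2 signal was 9.46, 9.08 and 9.34 in the UAS-jumu arrays, against 9.81, 10.03 and 10.06 in controls. The highest UAS-jumu array was below the lowest control array. The log2 change was -0.67 ± 0.15 (SE), with a 95% interval of -1.06 to -0.28 and an adjusted p of 0.0993 in limma. Pgi, encoding the glucose 6-phosphate isomerase of the next step, measured 9.47, 9.52 and 9.66 in UAS-jumu arrays and 9.81, 10.04 and 9.86 in controls. Its groups were separate by a narrower margin, and the change was -0.35 ± 0.12 (SE, 95% interval -0.66 to -0.05, limma adjusted p = 0.198).

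Pfk encodes phosphofructokinase, the committed and most regulated step of the pathway. Its signal was 7.39, 6.90 and 7.07 in UAS-jumu arrays, against 7.09, 7.19 and 7.23 in controls. UAS-jumu array 1 was the highest of the 6 and array 2 the lowest, so the groups overlapped. The change of -0.05 ± 0.16 (SE, limma adjusted p = 0.911) had a 95% interval of -0.46 to 0.36, which also holds a decrease as large as that of Pgi.

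Tpi, whose enzyme interconverts the triose phosphates made by aldolase, had the largest difference of the 8 genes. It measured 7.99, 8.29 and 8.02 in UAS-jumu arrays and 9.39, 9.12 and 8.97 in controls. Every UAS-jumu array was at least 0.685 log2 units below every control array. The log2 change was -1.06 ± 0.16 (SE), with a 95% interval of -1.48 to -0.64 and a limma adjusted p of 0.0486. This call stood just inside the threshold. It was lost without any 1 of the 6 arrays, where the change lay between -1.16 and -0.95 and the limma adjusted p between 0.110 and 0.171. It was lost also with median centring (-0.79, limma adjusted p = 0.201). These losses are not particular to Tpi. Without 1 array 0 to 1 of all probe sets were called lower, and with median centring 0. The overexpressed jumu did not pass in these fits either (limma adjusted p 0.0628 to 0.104 without 1 array, 0.0600 with median centring). Under scaling to hybridization and poly-A controls Tpi kept a negative change, of -0.49 and -0.16, that did not pass (adjusted p 0.339 and 0.479).

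In the lower part, Gapdh1 encodes glyceraldehyde 3-phosphate dehydrogenase, the oxidation step. Its signal was 7.65, 7.32 and 7.14 in UAS-jumu arrays, against 7.12, 7.58 and 7.54 in controls. Each group spanned nearly the same range, and the change was -0.04 ± 0.21 (SE, 95% interval -0.57 to 0.49, limma adjusted p = 0.949). Pgk, for the ATP-forming phosphoglycerate kinase that follows, measured 8.88, 8.53 and 8.71 in UAS-jumu arrays and 8.62, 8.996 and 8.76 in controls. These groups overlapped too, with a change of -0.08 ± 0.16 (SE, 95% interval -0.49 to 0.33, limma adjusted p = 0.841).

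Pglym78 encodes the phosphoglycerate mutase that moves the phosphate ahead of enolase. It was at 8.56, 8.38 and 8.40 in UAS-jumu arrays, against 9.09, 9.01 and 8.98 in controls. The SDs of 0.10 in UAS-jumu arrays and 0.05 in controls were small beside the change of -0.58 ± 0.10 (SE, 95% interval -0.85 to -0.31), and its limma adjusted p of 0.0662 was the closest to the threshold after Tpi. Eno, encoding enolase, measured 11.41, 11.41 and 11.58 in UAS-jumu arrays and 11.92, 12.00 and 11.84 in controls. The groups were separate, and the change was -0.45 ± 0.11 (SE, 95% interval -0.73 to -0.18, limma adjusted p = 0.108).

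How many of these genes passed depended on how the spread was estimated. An intensity trend in limma's variance prior, under which bright probe sets get smaller errors, called 5 of the 8 lower: Tpi (adjusted p = 9.28e-06), Eno (2.19e-05), Hex-A (8.47e-05), Pglym78 (0.000736) and Pgi (0.00668). The same fit called 8.27% of all probe sets lower, and 20.4% of those with a mean log2 signal of at least 7. Pfk, Gapdh1 and Pgk were not called there (adjusted p 0.941, 0.951 and 0.780). With each array left out in turn under this trend, the count stayed at 5. In combination with median centring the trend left 1 gene, Tpi, where 1.67% of all probe sets were called lower. With scaling to poly-A controls 0 of the 8 were called lower and 3 higher, beside 36.3% of all probe sets called higher. With the trend as well 5 were called higher, beside 39.9% of all probe sets.

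**Figure D2:**
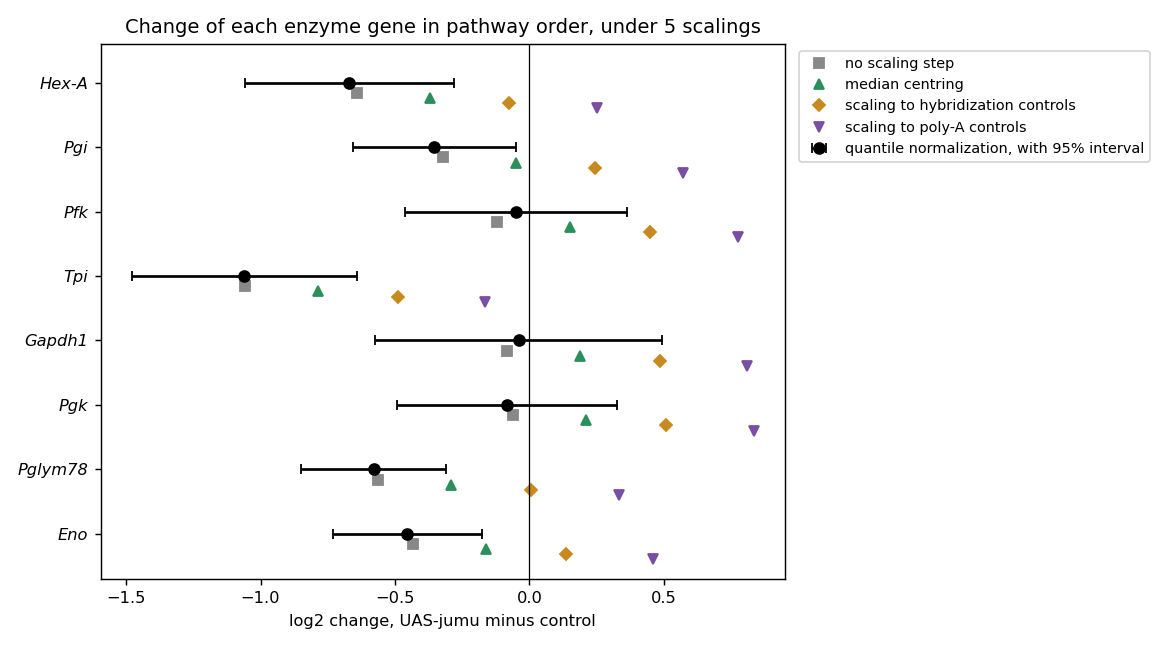
Log2 change, UAS-jumu minus control (x axis), of the 8 enzyme genes in pathway order from top to bottom; black circles with bars are the limma estimate after quantile normalization and its 95% interval, and the other symbols are the estimate with no scaling step, median centring, or scaling to hybridization or poly-A controls. The intervals of Pfk, Gapdh1 and Pgk include 0, all symbols of a gene shift together to the right with the control scalings, and Tpi is left of 0 under all 5.

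Differences between enzyme genes within 1 array do not depend on any shift of the whole array. On the deposited values, the log2 ratio of Tpi to the mean of the other 7 genes was -0.99, -0.47 and -0.83 in UAS-jumu arrays and 0.31, -0.16 and -0.22 in controls. Tpi was therefore lower relative to the rest of its own pathway in every UAS-jumu array, by 0.74 on average. The ratio of Hex-A was lower by 0.26 and that of Pglym78 by 0.17, each without overlap. In the other direction, Pgk had ratios of 0.05, -0.16 and -0.02 in UAS-jumu arrays, against -0.57, -0.31 and -0.46 in controls. Pfk was likewise 0.33 higher without overlap, Gapdh1 was 0.37 higher with overlap, and Pgi and Eno differed by 0.10 and -0.03 with overlap. These ratios show unequal change among the genes and were given no test, since an exact permutation test of 3 arrays against 3 cannot go below 0.10. Each ratio holds the other 7 genes, so a fall of Tpi raises the ratios of the rest by construction. Groups without overlap are common, as single probe sets showed after quantile normalization: 2682 of 18769 were higher and 2759 lower in this way. No such share was obtained for ratios.

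**Figure D3:**
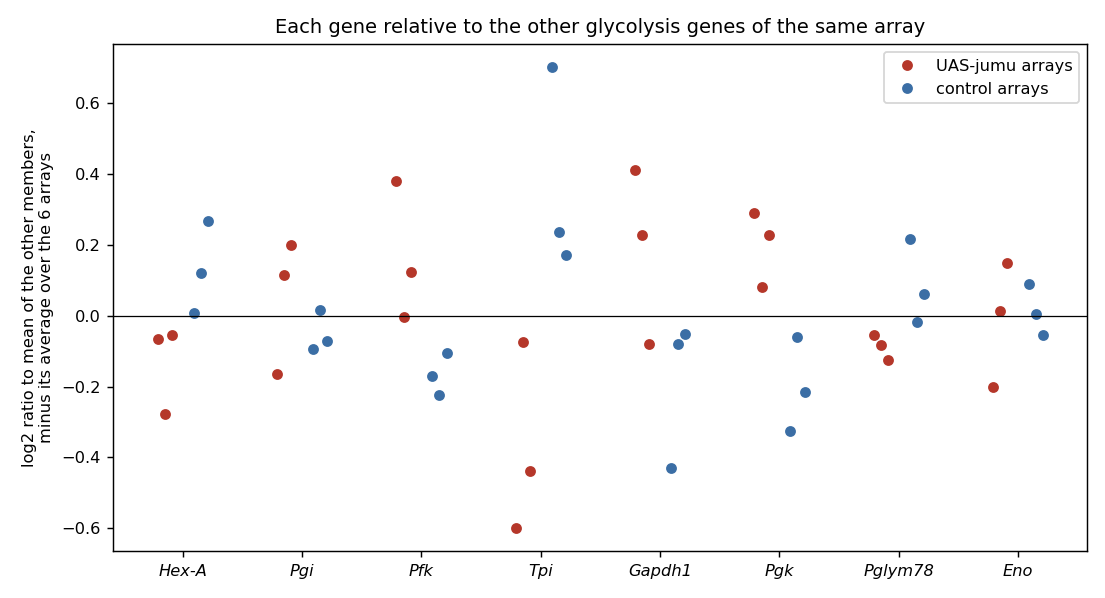
Log2 ratio of each enzyme gene to the mean of the other 7 on the same array, from the deposited values and minus its average over the 6 arrays (y axis), for the 3 UAS-jumu arrays (red, left of each gene) and the 3 control arrays (blue, right). Tpi, Hex-A and Pglym78 are lower and Pfk and Pgk higher in all UAS-jumu arrays, while the groups of Pgi, Gapdh1 and Eno overlap.

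Position in the pathway did not sort the genes. The mean change was -0.53 over the 4 upper genes (Hex-A, Pgi, Pfk and Tpi) and -0.29 over the 4 lower ones (Gapdh1, Pgk, Pglym78 and Eno), and each part held genes near 0 beside genes well below it. Arrays of a genotype also differed from each other. Relative to their group means, 5 of 8 genes were above in UAS-jumu array 1, 1 in array 2 and 4 in array 3, and the mean deviations were 0.10, -0.08 and -0.02 log2 units. In the controls 2, 6 and 3 genes were above.

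The arrays also carry Affymetrix control probe sets for GAPDH, for which the sources used here do not say which GAPDH gene they detect. On the deposited scale, the brightest of them measured 10.11, 10.25 and 10.27 in UAS-jumu arrays and 10.43, 10.39 and 10.46 in controls, a difference of -0.22. The median of all probe sets differed by -0.27 on that scale, and 2 other 3′ GAPDH control probe sets differed by -0.36 and -0.65 without overlap. The remaining 4, for the middle and 5′ parts, differed by -0.59 to 0.0024 with overlap. The log2 difference between 3′ and 5′ control probe sets, a measure of RNA integrity and labelling, was 2.41 to 2.57 in UAS-jumu arrays and 2.35 to 2.36 in controls for 1 actin pair. For 18S rRNA it was 2.56 to 3.13 in UAS-jumu arrays and 1.84 to 2.23 in controls, again without overlap. The groups overlapped for GAPDH and eIF-4a, and also for a further actin control, Act5C. The Act5C 3′ set was at 14.47, 14.44 and 14.36 in UAS-jumu arrays and 14.67, 14.74 and 14.75 in controls. One of its 5′ sets was at 11.32, 11.56 and 10.67 in UAS-jumu arrays and 11.39, 11.74 and 11.77 in controls. The part of the 3′ to 5′ difference in the results was not tested.

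Aldolase, the step between Pfk and Tpi, was represented on the list of other glycolysis and lactate genes by Ald1. Its log2 signal was 11.45, 11.26 and 11.44 in UAS-jumu arrays and 11.56, 11.60 and 11.80 in controls. The groups did not overlap, and the change was -0.27 ± 0.12 (SE, limma adjusted p = 0.317). A dimmer Ald1 probe set differed by -0.47 ± 0.21 with overlap. Of the 12 measured genes on that list 0 passed in limma, and 0 had an unadjusted p under 0.05, which 19.5% of all probe sets had. They include the hexokinase paralogs Hex-C, Hex-t1 and Hex-t2, the mutase paralog Pglym87 and the pyruvate kinase paralogs, and 9 of the 12 were below a log2 signal of 6 on all 6 arrays. Ldh was not analysed here.

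Neighbouring pathways of carbon metabolism held single genes that changed. In the gluconeogenesis list Pepck2, for phosphoenolpyruvate carboxykinase, fell by 0.90 ± 0.11 (SE) on the log2 scale (limma adjusted p = 0.0367). It was the 1 gene called lower of 5 measured, and 0 were called higher, beside 1.41% of all probe sets called lower. Of the 5 changes 2 were positive, and 1 gene, PCB, was higher without overlap. The Pepck2 signal was 9.06, 8.96 and 8.83 in UAS-jumu arrays and 9.91, 9.87 and 9.76 in controls. The list's median change was -0.55, which turned to 0.023 and 0.35 with the hybridization and poly-A control scalings. In the list of glycogen and trehalose genes Pgm1, the phosphoglucomutase that links glycogen to glucose 6-phosphate, fell by 0.62 ± 0.09 (limma adjusted p = 0.0421). Pgm1 was the 1 gene called of 11 measured, of which 4 had positive changes. It measured 10.19, 10.24 and 10.21 in UAS-jumu arrays and 10.86, 10.83 and 10.81 in controls. That list's median was -0.026, and 0.060, 0.36 and 0.68 with median centring and the control scalings. Both calls were lost with median centring, where the changes were -0.59 for Pepck2 and -0.32 for Pgm1, and with hybridization control scaling, where they were -0.29 and -0.024. With either of these scalings 0 of all probe sets were called lower. Scaling to poly-A controls turned both changes positive, to 0.032 for Pepck2 and 0.30 for Pgm1.

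Downstream of pyruvate the tricarboxylic acid cycle list held 1 call in each direction. Of 15 measured genes limma called Idh lower and Idh3b higher, beside 2.77% of all probe sets called in either direction. Changes were negative in 12 of the 15, and in 50.6% of all probe sets. The list's median change was -0.30, which turned to 0.27 and 0.59 with the hybridization and poly-A control scalings. Idh, the NADP-dependent isocitrate dehydrogenase, was at 8.05, 7.96 and 8.21 in UAS-jumu arrays, against 9.87, 9.58 and 9.90 in controls, a change of -1.71 ± 0.14 (SE, limma adjusted p = 0.0229). Idh3b, a subunit of the mitochondrial NAD-dependent enzyme, was at 9.70, 9.90 and 9.84 in UAS-jumu arrays, against 8.66, 8.76 and 8.52 in controls, a change of 1.16 ± 0.12 (SE, limma adjusted p = 0.0284). Both kept their direction under all 5 scalings, but both calls were lost with median centring (limma adjusted p = 0.125 for Idh and 0.0924 for Idh3b) and with scaling to hybridization controls (0.0885 and 0.0667).

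The lists of pyruvate entry, pentose phosphate and glycerol phosphate genes had 0 genes past the threshold in limma among 5 measured in each. An unadjusted p under 0.05, which 19.5% of all probe sets had, was found for 2, 2 and 3 genes. Of these 1, 1 and 2 were higher, and 1 in each list was lower. The medians of the lists were -0.20, -0.15 and 0.45, and the first 2 turned positive with median centring (0.09 and 0.15) and with both control scalings. In the last list, 3 of the 5 genes were below a log2 signal of 6 on all 6 arrays. The mitochondrial pyruvate carrier gene Mpc1 differed by 0.26 ± 0.10 and CG7430, for dihydrolipoamide dehydrogenase, by -0.36 ± 0.11. The transaldolase gene Taldo differed by -0.34 ± 0.12, the transketolase gene CG8036 by -0.24 ± 0.10 and Gpdh1, the cytosolic glycerol 3-phosphate dehydrogenase, by -0.42 ± 0.11 (all SE). Dimmer Gpdh1 probe sets differed by -0.34 ± 0.11 without overlap, and by 0.05 ± 0.16 and -0.07 ± 0.15 with overlap.

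**Figure D4:**
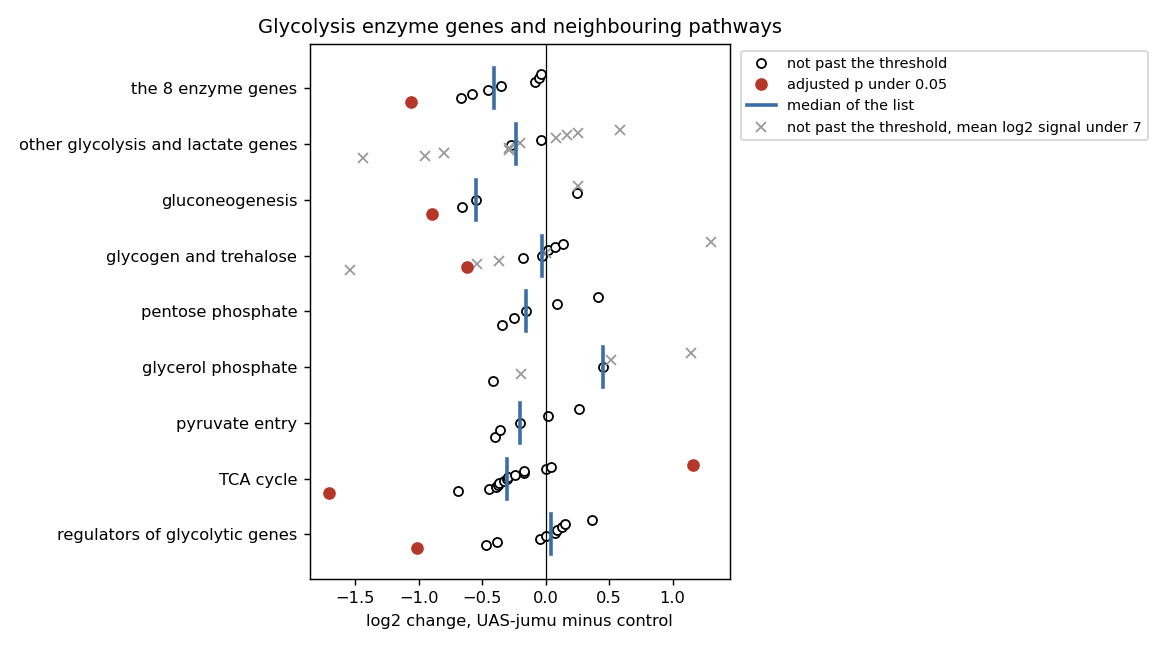
Log2 change, UAS-jumu minus control (x axis), of the 8 enzyme genes and of the genes in 8 further lists (rows); filled circles passed an adjusted p of 0.05 in limma, open circles and crosses did not, crosses mark genes with a mean log2 signal under 7, and the bar is the median of the list. The 8 enzyme genes all lie at or left of 0 with a median of -0.40, and the cycle list holds both Idh at -1.71 and Idh3b at 1.16.

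Among 10 measured known regulators of glycolytic genes, limma called 1 lower, sug, and 0 higher, beside 1.41% of all probe sets called lower. Changes were positive in 6 of the 10, and without overlap 2 were higher and 3 lower. The gene sug encodes the sugar-responsive zinc finger factor Sugarbabe. Its log2 signal was 10.10, 10.20 and 10.24 in UAS-jumu arrays and 11.22, 11.20 and 11.17 in controls. The change was -1.01 ± 0.09 (SE, limma adjusted p = 0.0245). The call was lost with median centring, where the change was -0.72 (limma adjusted p = 0.230), and with the hybridization and poly-A control scalings, where it was -0.42 and -0.098. The median of the list was 0.04. Like that of Tpi, the calls of Pepck2, Pgm1, Idh, Idh3b and sug were lost with any 1 array left out (limma adjusted p 0.0631 to 0.155 over the 5 genes). The overexpressed jumu did not pass there either (limma adjusted p 0.0628 to 0.104), so these losses are not particular to the 5 genes. ERR, a gene that the naming rule did not pick and that was chosen after its values were seen, differed by -0.47 ± 0.21 (SE, limma adjusted p = 0.324).

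The genes whose profile over the 6 arrays was most like the mean of the 8 enzyme genes were l(1)G0289, CG14715, mnd, CG11279 and ATPsyngamma, with Pearson's r of 0.991 to 0.996 among 3947 genes with a mean log2 signal of at least 9. Their changes were -0.37 to -0.58 and 0 of the 5 passed in limma. All 5 had an unadjusted p under 0.05, as did 19.5% of all probe sets. These p-values follow from how the 5 genes were picked and are no support. The correlation rests largely on the difference between the genotypes that all of them share.

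Markers of cell types moved between the groups beside these values. The log2 of the summed signal of the 8 enzyme genes was 12.37 to 12.50 in UAS-jumu arrays and 12.86 to 12.99 in controls. In such a sum the probe sets with the highest signal weigh most, such as Eno here and Argk1 among the muscle genes. For 11 neuron and glia genes the log2 sum was 14.12 to 14.14 in UAS-jumu arrays and 14.95 to 14.997 in controls. In limma 7 of them were called lower and 0 higher, beside 1.41% of all probe sets called lower. For 11 epidermis and trachea genes the log2 sum was 12.32 to 12.40 in UAS-jumu arrays and 13.20 to 13.23 in controls. Of these 3 were called lower and 0 higher. Their changes were negative in 9 and positive in 2, including Egfr at 0.64 ± 0.14 (SE) without overlap. Differentiated muscle genes were at 13.91 to 13.99 in UAS-jumu arrays and 14.60 to 14.67 in controls. All 8 changes were negative, and 3 were called lower in limma, including Argk1, for arginine kinase. Early mesoderm genes were at 13.66 to 13.73 in UAS-jumu arrays and 13.46 to 13.54 in controls. In limma 1 of 7, htl, was called higher, as were 255 of all 18769 probe sets. Changes were positive in 5 of the 7 and negative in 2, including sna at -0.49 ± 0.10 (SE) without overlap. Blood and fat body genes were at 14.06 to 14.08 in UAS-jumu arrays and 14.21 to 14.26 in controls. Of the 9 genes, 0 rose and 2 fell in limma, PPO1 and Pxn, 6 changes were positive, and the median change was 0.38. Outside the named genes and picked after their values were seen, He and Hml, known from blood cells, differed by 4.96 ± 0.88 and 4.86 ± 1.13 (SE, limma adjusted p = 0.0646 and 0.105). He was at 6.52 to 6.85 in UAS-jumu arrays and 0.50 to 3.60 in controls, and Hml at 7.93 to 8.06 in UAS-jumu arrays and 0.64 to 4.57 in controls. The blood genes srp and gcm were also higher without overlap, by 0.51 and 0.38, with no call. Under a log2 signal of 6 on all 6 arrays were 2 of the 9 blood and fat body markers and 0 measured markers of the other lists. With poly-A control scaling the group differences of the summed signals of neuron, epidermis, muscle and blood lists, as of the enzyme genes, turned positive (0.055, 0.067, 0.15, 0.72 and 0.45 log2 units). Those of the blood list and the enzyme genes were positive with hybridization control scaling too (0.39 and 0.12), and that of the blood list with median centring (0.095). Median changes with poly-A control scaling were -0.014 (neuron), 0.16 (epidermis), 0.017 (muscle), 1.22 (blood) and 0.52 (enzyme genes). The part of the marker genes in the enzyme genes' values was not tested. In such pooled cells fewer cells of a type and less RNA per cell cannot be told apart.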

How the data were processed

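RNA of GFP-sorted cells was labelled with biotin and measured on Affymetrix-type probe sets, with 3 arrays per genotype, and groups and replicate numbers were taken from sample titles. The authors deposited log2 signals per probe set, made with the Bioconductor package affy per the submitters' processing notes. For its version and steps, the sources used here give nothing. Base 2 was inferred from how far the values extend. Of 18952 rows, 183 control probe sets were left out of the test, and the other 18769 were quantile-normalized and fitted in R 4.3.3 by limma 3.58.1 (lmFit, then eBayes; two-sided, no covariates, Benjamini-Hochberg over all 18769, threshold 0.05). The fit was tested on simulated data. The platform annotation gave 13647 probe sets 1 gene, 402 several and 4720 none; symbols were updated through a RefSeq gene table (Release 6 plus ISO1 MT), which matched 13544. A gene's probe set was that with the highest mean. Members, gene lists and tests were chosen with earlier results of these data known. Genes named were the members, list genes past the threshold or else the 2 largest changes at a mean of at least 9, and the 5 most like profiles.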

Additional observations from a re-analysis of the deposited data

How the results depend on the processing

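Over 28 alternatives the number of genes past the threshold depended on the setting. The enzyme genes' median minus that of all probe sets was -0.40, -0.27 without quantile normalization and -0.46 to -0.34 without 1 array; the 4 other scalings give 1 value by construction, and the variance settings and the block leave it as it is. In limma 1 of the 8 was called lower, with 519 probe sets called in all. Without 1 array the count was 0 in each of the 6 cases, with 0 to 21 probe sets called. It was 0 also with median centring (20 probe sets), with scaling to hybridization controls (31 probe sets), with the replicate block (0 probe sets) and in the unequal-variance test (453 probe sets). It was 5 with dim probe sets left out (2580 probe sets), where fewer features are tested, with an intensity trend (3096 probe sets), with robust estimation added (3094) and with the trend and no scaling step (3246). Leaving out 1 array under the trend gave 5 genes each time and 2537 to 2794 probe sets, and the trend with median centring gave 1 gene and 2357 probe sets. With poly-A control scaling 0 were lower and 3 higher (6924 probe sets), or 5 higher with the trend (7582 probe sets), and with hybridization controls and the trend 0 were lower and 1 higher (5169 probe sets). The trend with no scaling step or with control scalings was added after seeing the data. Apart from the shifts that these scalings apply by construction, the cause of the differences was not tested. The 8 further lists held 58 measured genes of carbohydrate metabolism and the cycle and 10 of regulators. Of these 5 passed in limma, beside 519 of 18769 probe sets, and 0 with median centring, hybridization control scaling, the replicate block or any 1 array left out. With dim probe sets left out 23 passed, beside 2580 of 9385 probe sets, and with poly-A control scaling 36, beside 6924 of 18769. With the trend 27 passed, beside 3096 of 18769 probe sets, and 26 with robust estimation. The trend gave 25 with no scaling step, 24 with hybridization controls or with the replicate block and 45 with poly-A controls (7582 probe sets). It gave 11 with median centring (2357 probe sets) and 21 to 25 without 1 array.

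The median change of -0.40 was -0.46 to -0.35 without 1 array, with or without the trend, -0.11 with median centring, 0.19 with hybridization and 0.52 with poly-A control scaling. Median centring turned Pfk (0.15), Gapdh1 (0.19), Pgk (0.21), Ald1 (0.018) and CG8036 (0.032) positive. Hybridization control scaling gave Pgi 0.25, Pfk 0.45, Gapdh1 0.48, Pgk 0.51, Pglym78 0.0059, Eno 0.14, Ald1 0.31, Taldo 0.25, CG8036 0.33, Gpdh1 0.18, CG7430 0.23, l(1)G0289 0.082, CG14715 0.16, mnd 0.23, CG11279 0.0099 and ATPsyngamma 0.083. Poly-A control scaling gave Hex-A 0.25, Pgi 0.57, Pfk 0.78, Gapdh1 0.81, Pgk 0.83, Pglym78 0.33, Eno 0.46, Ald1 0.64, Pepck2 0.032, Pgm1 0.30, Taldo 0.58, CG8036 0.66, Gpdh1 0.50, CG7430 0.55, l(1)G0289 0.41, CG14715 0.49, mnd 0.56, CG11279 0.34 and ATPsyngamma 0.41. Without 1 array, Pfk ran from -0.18 to 0.059, Gapdh1 from -0.19 to 0.077 and Pgk from -0.17 to 0.020. By their correlations (-0.012, 0.0026 and 0.0097), same-numbered arrays of the genotypes did not deviate together. The deposited 3′ 18S rRNA control was alike by number, at 13.77, 13.86 and 13.73 in UAS-jumu arrays and 13.77, 13.87 and 13.73 in controls. The middle 18S rRNA control was not, at 11.825, 12.04 and 12.07 in UAS-jumu arrays and 12.49, 12.44 and 12.42 in controls. Deviations from means of 3 arrays cannot settle whether a number stands for a shared collection, sort or hybridization. With the replicate block and the trend 5 genes were lower (2955 probe sets). The lowest adjusted p with the block alone was 0.238, and Tpi was at -1.06 with an adjusted p of 0.254. With 3 arrays a group, small changes of Pfk, Gapdh1 and Pgk could not be seen, and signal over background was not used here.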
